A study of Mus musculus with 3 samples.

Results

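Enteric neurons that expressed *Nos1* without *Chat* were divided by their *Vip* transcripts, and the neurons rich in *Vip* were compared with those in which none was counted. The cells were chosen by their counts of these 3 genes. A Nos1 neuron was a cell with at least 2 UMIs of *Nos1* and 0 of *Chat*, a UMI being the tag that counts a captured RNA molecule a single time. Of these 762 cells among the 2060 deposited neurons, 380 had at least 3 UMIs of *Vip* (Vip-high), 157 had 0 (Vip-0) and 225 had 1 or 2. The 537 cells of the Vip-high and Vip-0 sides came from all 3 mice of the study. *Nos1*, *Chat* and *Vip* are therefore given as a description and were not tested. The mice were *Wnt1-tdT; Ednrb*-/- animals at postnatal day 14, labelled as strain C57BL/6 and as a model of Hirschsprung disease, in which *Ednrb*, the endothelin receptor B gene, is knocked out in every cell of the body. *Wnt1-Cre* switches on tdTomato in neural crest-derived cells, and tdTomato-positive cells were sorted from the longitudinal muscle with myenteric plexus of the small intestine. A separate 10X library was made per mouse, there was a single condition, and every comparison here is between cells of the same mice, so nothing in it measures an effect of the genotype.

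*Nos1* encodes the neuronal nitric oxide synthase, and *Vip* encodes the precursor of vasoactive intestinal peptide. Nitric oxide and this peptide are the classic relaxing signals of inhibitory motor neurons in the gut wall, nitric oxide through guanylate cyclase and the peptide through receptors that raise cAMP in muscle. Many myenteric nitrergic neurons also make galanin, neuropeptide Y or CART peptide, and the mixture of peptides is used to tell subtypes of these neurons apart. Transcription factors of the CREB family bind the cAMP response element, with the letters TGACGTCA or its core TGACG, and such an element has long been studied in the *Vip* promoter.

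The promoters of *Vip*, which defined the sides, and of *Cartpt*, the peptide precursor gene that differed most clearly between them, are shown because they hold this element in its short and its full form. Both run 5′ to 3′ from 250 bases before to 50 bases after the RefSeq transcript start on GRCm38.p6, with the match in capitals. The *Vip* window is chr10:5638968-5639267 on the plus strand, and the *Cartpt* window is chr13:99900634-99900933 on the minus strand.
Vip: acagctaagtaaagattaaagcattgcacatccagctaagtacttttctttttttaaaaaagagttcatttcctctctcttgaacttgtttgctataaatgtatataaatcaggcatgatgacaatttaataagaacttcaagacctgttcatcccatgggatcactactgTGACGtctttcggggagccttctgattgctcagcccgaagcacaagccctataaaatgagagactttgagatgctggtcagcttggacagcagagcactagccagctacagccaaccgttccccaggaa
Cartpt: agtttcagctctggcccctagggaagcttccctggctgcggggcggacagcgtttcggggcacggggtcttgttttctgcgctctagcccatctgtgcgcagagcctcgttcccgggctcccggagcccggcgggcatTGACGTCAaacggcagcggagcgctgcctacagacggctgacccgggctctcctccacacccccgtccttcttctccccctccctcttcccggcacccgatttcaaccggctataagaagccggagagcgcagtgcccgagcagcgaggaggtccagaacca
In the *Vip* window the core TGACG starts 79 bases before the transcript start, and in the *Cartpt* window the full TGACGTCA, which contains the core on both strands, starts 112 bases before it. The *Nos1* window has the core on the other strand, CGTCA, 130 bases before the start, and the *Npy* window has neither form. Searched on both strands, the full element lies in 2.03% of the 27025 promoters of the table and the core in 23.0%, and among the 5966 tested genes with a promoter the shares are 4.01% and 38.7%. Of the 18 genes that were higher in Vip-high cells, 13 had a promoter in the table and 3 of these held the core. Of the 29 that were lower, 18 had a promoter and 4 held the core. Both shares of the core lie below that of the tested genes. The full element lay in 1 of the 13, *Cartpt* (7.69%), and in 1 of the 18, *Gpm6b* (5.56%), above the share of the tested genes but on a single promoter each. A match of letters shows no binding.

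The share of Nos1 neurons that were Vip-high was 43.4% ± 17.2 (SD, n = 3 mice), and mouse 1 stood apart. There 25 of 105 Nos1 neurons were Vip-high (23.8%, 95% exact interval 16.0 to 33.1), against 239 of 427 in mouse 2 (56.0%, 51.1 to 60.7) and 116 of 230 in mouse 3 (50.4%, 43.8 to 57.1). The Vip-0 side held 36, 81 and 40 cells of mice 1, 2 and 3. The intervals cover counting error only. Vip-high cells were the deeper cells in every mouse. Their median was 4668, 10414 and 10374.5 UMIs over listed genes, against 3099, 7668 and 5430.5 in Vip-0 cells. A shallow cell has less chance to reach 3 UMIs of *Vip*, so the rule itself draws on depth, and mouse 1 was the shallowest library. The sums that were compared held 132586, 2443578 and 1178341 UMIs on the Vip-high side and 129961, 640450 and 264397 on the Vip-0 side. All levels below are in CPM, the UMIs of a gene in a sum scaled to a total of 1000000.

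**Figure D1:**
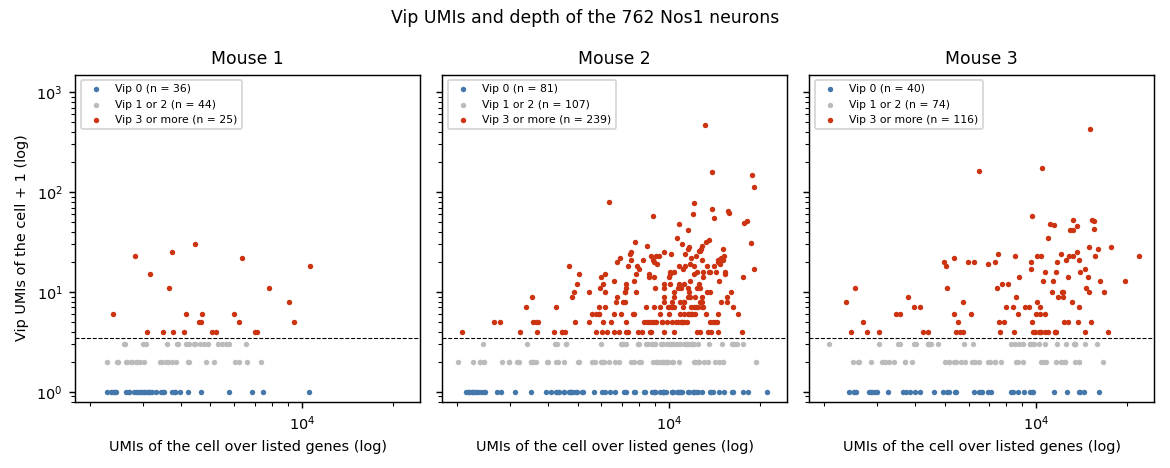
Each point is a Nos1 neuron, with its UMIs over listed genes on the x axis and its *Vip* UMIs plus 1 on the y axis, both on log scales, in a panel per mouse. The dashed line separates the 380 Vip-high cells, up to 472 *Vip* UMIs in a cell, from the 225 cells with 1 or 2 and the 157 with 0, and the Vip-high cells of each mouse lie further to the right.

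*Vip* (chromosome 10, 5639218 to 5647617, GRCm38) had a median of 5, 8 and 9 UMIs per Vip-high cell in mice 1, 2 and 3, with highest cells of 29, 472 and 423. Summed, it reached 1614, 1597 and 1951 CPM in Vip-high cells and 352, 167 and 186 CPM in the cells with 1 or 2 UMIs. *Nos1* (chromosome 5, 117781032 to 117958840) was at 1508, 1561 and 1259 CPM on the Vip-high side and at 1347, 976 and 1017 CPM on the Vip-0 side. Its median was 8, 11 and 10 UMIs per Vip-high cell and 4, 5 and 3 per Vip-0 cell, which were shallower. The rule of at least 2 UMIs set a floor on both sides, and the difference was not tested. Just inside the threshold lay the 56 cells with exactly 3 *Vip* UMIs, and just outside it the 96 cells with 2. For *Nos1*, 98 cells had exactly 2 UMIs, and 200 further cells without *Chat* had 1 and were not used. The cells at this limit were uneven between the sides. At least 3 *Nos1* UMIs were held by 22, 224 and 108 of the 25, 239 and 116 Vip-high cells. On the Vip-0 side 27, 60 and 27 of 36, 81 and 40 cells held them, a smaller share in every mouse. No background level of *Nos1* was estimated. Free RNA can put a few *Vip* molecules into any droplet. Of cells with at least 2 UMIs of *Chat* and none of *Nos1*, 38.6% of 57 in mouse 2 and 44.2% of 52 in mouse 3 had a *Vip* UMI, but 7.02% and 7.69% had 3 or more (median depth 9106 and 9128 UMIs). The cells with 1 or 2 UMIs of *Vip* cannot be told from such background, and mouse 1 had only 2 such *Chat* cells.

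Both sides carried neuronal transcripts. *Elavl4*, an RNA-binding protein gene of neurons, was counted in 98.7% of Vip-high and 91.1% of Vip-0 cells, *Stmn2* in 99.7% and 94.3% and *Uchl1* in 98.4% and 92.4%, shares that move with depth. *Tubb3*, the neuronal tubulin, was at 784, 638 and 621 CPM against 477, 484 and 439 CPM (adjusted p = 0.0731). *Ednrb* (chromosome 14, 103814625 to 103844402), the gene knocked out, was still counted, at 173, 225 and 185 CPM against 208, 325 and 250 CPM. Such counts take all exons together and are no check of the genotype. The libraries of different mice shared 2 cell barcodes. The files hold 1218 gene symbols with UMIs in mouse 1 alone, and whether the 3 libraries were counted with the same annotation is not given in the sources used here. With genes that had UMIs in every mouse, the comparison below called 62 higher and 145 lower genes in place of 18 and 29, and these include all 18 and all 29.

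Between Vip-high and Vip-0 cells, 7533 genes were tested, 18 were higher (0.239% of those tested) and 29 were lower (0.385%) at an adjusted p under 0.05 (limma with voom weights, mouse as block). At an unadjusted p under 0.05 there were 371 higher and 856 lower genes, and the median log2 difference over all genes was -0.08. The higher genes held a peptide group (*Cartpt* and *Npy*), the arginine-recycling enzyme *Ass1*, the globins *Ngb* and *Cygb* and 4 S100 calcium-binding proteins. The lower genes held transcription factors, cell surface and signalling proteins, a long noncoding RNA and 2 glial markers. Of the 18, 17 were higher in all 3 mice, and of the 29, 26 were lower in all 3. Some signs of mouse 1 rest on very few UMIs, as for *Miat* and *Tiam1*, each with 0 against 3. The calls rest on pooling the spread over genes, since with 3 pairs a sign-flip permutation test of a single gene cannot go below p = 0.25. Scaling by median-of-ratios size factors gave 34 higher and 22 lower genes, a different balance. Leaving out mouse 1 gave 177 and 436, leaving out mouse 2 gave 7 and 6 (4 of the 18 and 2 of the 29 among them), and leaving out mouse 3 gave 25 and 44.

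**Figure D2:**
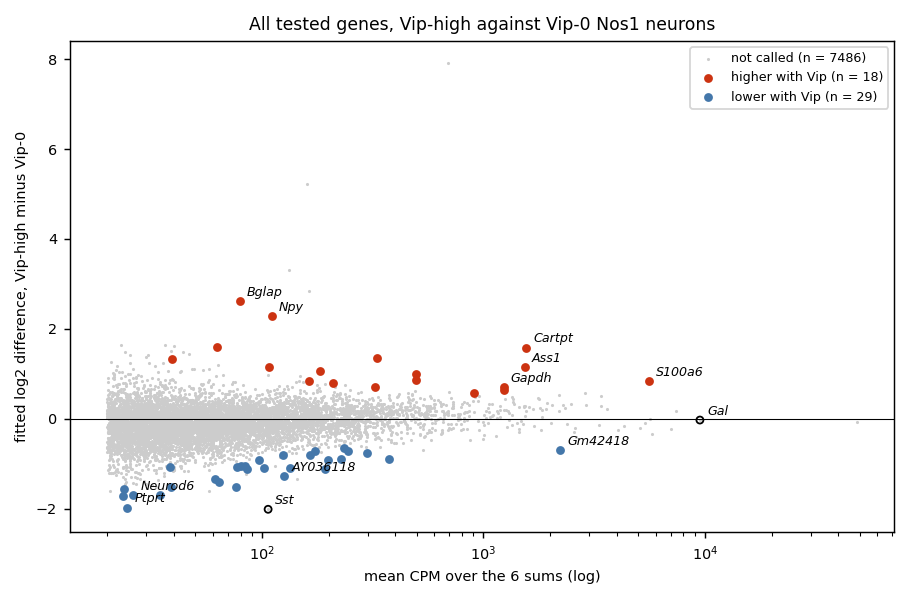
Each of the 7533 tested genes is a point, with its mean CPM over the 6 sums on a log x axis and the fitted log2 difference (Vip-high minus Vip-0) on the y axis. The 18 called higher genes are red and the 29 called lower genes blue, and *Gal* and *Sst*, which were not called, are circled. The 4 grey points above the called genes are haemoglobin genes.

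*Cartpt* (chromosome 13, 99898489 to 99901091), the precursor of CART peptide, had the smallest adjusted p of all genes. It was at 1908, 2950 and 2154 CPM in the Vip-high cells of mice 1, 2 and 3 and at 392, 1386 and 579 CPM in the Vip-0 cells. The 3 Vip-high values lay above all 3 Vip-0 values, and the fitted difference was 2.98-fold (log2 1.58 ± 0.17 SE, adjusted p = 0.00178). Per cell this was 10.1, 30.2 and 21.9 UMIs against 1.42, 10.96 and 3.82. The gene was spread over many cells, 288 of the 380 Vip-high and 84 of the 157 Vip-0 cells, although a single Vip-0 cell held 19.7% of that side's 1092 UMIs. Among the *Chat* cells without *Nos1* described above, mice 2 and 3 had 0.860 and 0.577 UMIs per cell. In these mice 43.9% and 38.5% of the *Chat* cells held a *Cartpt* UMI. The shares were 58.0% and 52.5% in Vip-0 and 74.5% and 80.2% in Vip-high cells. *Cartpt* stayed called in 18 of 22 alternative settings.

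*Npy* (chromosome 6, 49822710 to 49829507), the precursor of neuropeptide Y, went with *Vip* in 2 of the 3 mice. It was at 223 and 144 CPM in the Vip-high cells of mice 2 and 3 against 25.0 and 34.0 CPM in their Vip-0 cells, but at 106 against 131 CPM in mouse 1. The fitted difference was 4.84-fold (log2 2.27 ± 0.40 SE, adjusted p = 0.0257), and it was log2 2.85 without mouse 1. Without mouse 2 it was log2 1.08 and no longer called. In mice 2 and 3, 38.1% and 31.0% of Vip-high cells and 12.3% and 17.5% of Vip-0 cells held an *Npy* UMI, against 1.75% and 0% of the *Chat* cells. *Npy* and *Cartpt* also stood in a list of markers of nitrergic subsets that had been drawn from these same cells, so their direction is not independent evidence.

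The other peptide precursors were not called. *Gal* (galanin) was at 5506, 11000 and 9550 CPM in Vip-high cells and at 10788, 16590 and 3495 CPM in Vip-0 cells, lower on the Vip-high side in mice 1 and 2 and higher in mouse 3 (log2 -0.03 ± 0.29 SE, adjusted p = 0.977). Galanin RNA was thus plentiful on both sides, in at least 88.9% of the cells of every sum. The share of cells alone says little. Of neurons with 0 UMIs of *Nos1*, *Chat* and *Vip*, 5.85%, 74.9% and 73.0% in mice 1, 2 and 3 held a *Gal* UMI, at 26.6, 1013 and 241 CPM. A single Vip-0 cell held 12.1% of that side's *Gal* UMIs. *Penk* (enkephalins) was at 106, 53.2 and 115 CPM against 239, 281 and 71.9 CPM (adjusted p = 0.119). *Tac1* (substance P), a marker of excitatory neurons, was at 83.0, 94.9 and 126 CPM against 162, 198 and 132 CPM (adjusted p = 0.101). *Grp* was at 52.8, 192 and 461 CPM against 30.8, 169 and 163 CPM (adjusted p = 0.132). *Sst* had the lowest fitted value of all genes, log2 -2.02, yet 499 CPM in the Vip-0 cells of mouse 3 stood against 0 and 20.3 CPM in those of mice 1 and 2, and a single cell held 82.8% of the side's *Sst* UMIs (adjusted p = 0.224). *Nmu*, *Calcb*, *Nucb2* and *Vgf* had adjusted p values between 0.248 and 0.897. Of 28 peptide genes listed, 11 passed the filter on low values, 2 were higher and 0 lower (limma, 3 higher and 4 lower at an unadjusted p under 0.05).

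*Ass1* (chromosome 2, 31470207 to 31520672) encodes argininosuccinate synthase, which with argininosuccinate lyase rebuilds arginine, the substrate of nitric oxide synthase, from citrulline. It was at 2263, 2196 and 1735 CPM in Vip-high cells against 1408, 999 and 590 CPM in Vip-0 cells, 2.22-fold higher (log2 1.15 ± 0.13 SE, adjusted p = 0.00196). Its Vip-high values lay above all Vip-0 values. The lyase gene *Asl* was at 234, 192 and 197 CPM against 131, 144 and 117 CPM and was not called (adjusted p = 0.111). *Dynll1*, whose product binds Nos1, was at 1297, 1163 and 865 CPM against 985, 765 and 639 CPM (adjusted p = 0.0535), and *Pcbd1*, of tetrahydrobiopterin recycling, was at 166, 340 and 379 CPM against 146, 237 and 151 CPM (adjusted p = 0.0735). In each mouse these 3 genes had the higher value on the Vip-high side. Of the 22 listed genes of nitric oxide synthesis, arginine supply and its target cyclase, 15 were tested, 1 was higher and 0 lower, and their median log2 difference was 0.23 beside -0.08 for all genes.

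Genes of calcium-binding S100 proteins lie together on chromosome 3, and 4 of them were higher on the Vip-high side. Over all 7533 tested genes, 18 were higher (0.239%). No list of all S100 genes was made, so the share of the family that was higher is not given. *S100a6* (90612882 to 90624181) was at 6848, 8381 and 5952 CPM against 4532, 4836 and 2814 CPM, 1.78-fold (log2 0.83 ± 0.10 SE, adjusted p = 0.00196). *S100a4* was at 671, 424 and 257 CPM against 377, 114 and 132 CPM, 2.56-fold. Its model overlaps *Gm42674* on the same strand, so the counts of these genes may be split. *S100a13* and *S100a1*, which neighbour each other on opposite strands, differed 1.98-fold and 1.64-fold. Of 21 listed calcium-binding proteins used to class enteric neurons, 17 were tested, *S100a4* and *S100a6* were called, and 15 of the 17 had a positive value (median log2 0.47), as had 3026 of all 7533 tested genes. *Scgn* (secretagogin) was at 60.3, 62.2 and 54.3 CPM against 53.9, 17.2 and 15.1 CPM (adjusted p = 0.0681).

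The heme proteins neuroglobin and cytoglobin, which bind oxygen and nitric oxide, were both higher with *Vip*. *Ngb* (chromosome 12, 87097531 to 87102539) was at 90.5, 88.0 and 92.5 CPM against 53.9, 26.5 and 22.7 CPM, 3.03-fold (adjusted p = 0.0257). *Cygb* (chromosome 11, 116645595 to 116654313) was at 166, 142 and 120 CPM against 115, 62.5 and 37.8 CPM, 2.21-fold (adjusted p = 0.0341). For both genes the Vip-high values lay above every Vip-0 value. *Bglap*, the osteocalcin gene, had the largest fitted difference of the called genes. It was at 196, 104 and 94.2 CPM against 53.9, 9.37 and 18.9 CPM, 6.15-fold (log2 2.62 ± 0.39 SE, adjusted p = 0.00833), with 18 UMIs in the whole Vip-0 side. *Bglap* has near-identical neighbours, *Bglap2* and *Bglap3*, so its count is uncertain.

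The other 8 higher genes were of several kinds. *Alcam*, a cell adhesion molecule, was at 807, 477 and 608 CPM against 516, 247 and 318 CPM, 1.83-fold (adjusted p = 0.00659). It was the only called gene among 44 tested genes of adhesion and axon guidance. *Cd9* (a tetraspanin) differed 1.55-fold, *Stmn3* and *Tbcb*, which act on tubulin, 1.49-fold and 1.74-fold, and the glycolysis enzyme gene *Gapdh* 1.62-fold. *Ttr*, which encodes the carrier transthyretin, was at 37.7, 90.4 and 45.8 CPM against 7.69, 37.5 and 15.1 CPM, 2.51-fold, and lay closest to the threshold of the 18 (adjusted p = 0.0486). *Vstm2l* differed 1.79-fold and *Gm13889*, whose model overlaps *Gm27027*, 2.09-fold. All 18 higher genes also had more UMIs per cell on the Vip-high side in each mouse, as deeper cells would for a gene at the same CPM. Of the 29 lower genes, 17 had fewer UMIs per cell on the Vip-high side in all 3 mice.

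**Figure D3:**
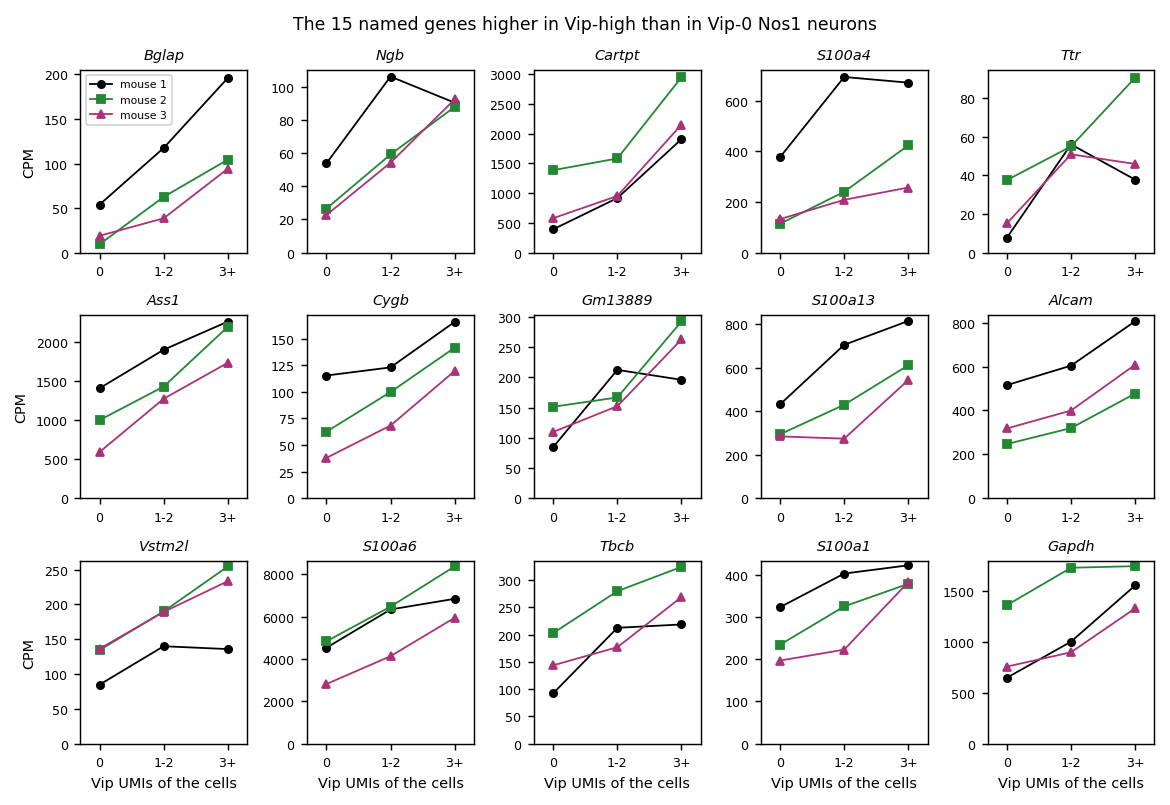
Each panel is a gene and gives its CPM (y axis, from 0) in cells with 0, 1 to 2 and 3 or more *Vip* UMIs (x axis), with a line per mouse and no error, since each point is the sum over the cells of a mouse. In all 15 panels every mouse ends higher at 3 or more UMIs than at 0.

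The cells with 1 or 2 *Vip* UMIs, which entered neither side, lay between the sides for most called genes, except for the lower genes in mouse 1. For the 18 higher genes their CPM fell between the Vip-0 and Vip-high values for 12 genes in mouse 1, 18 in mouse 2 and 15 in mouse 3. *Cartpt*, for example, was at 918, 1584 and 953 CPM in them and *Ass1* at 1902, 1430 and 1274 CPM. For the 29 lower genes the numbers were 11, 24 and 24. By their median depth of 3867, 8831 and 7021.5 UMIs these cells also lay between the sides, and the part of depth in these levels was not tested. The called genes were chosen for a difference between the sides, which favours a value between them. The share over all tested genes is not given.

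Of the 29 genes that were lower on the Vip-high side, 14 had a mean of at least 100 CPM, as had 2042 of the 7533 tested genes. Transcription factor genes among the 29 were *Neurod6*, *Pou3f1*, *Trps1*, *Id2*, *Lmo4* and *Sox10*, which is given below with the glial markers. *Neurod6* (chromosome 6, 55677822 to 55681263), a basic helix-loop-helix factor used as a marker of a subset of enteric neurons, was at 0, 14.7 and 17.0 CPM in Vip-high cells against 46.2, 53.1 and 26.5 CPM in Vip-0 cells (log2 -1.71 ± 0.34 SE, adjusted p = 0.0398). The 0 of mouse 1 allows up to 22.6 CPM, that is 3 counts of its sum. *Trps1*, a zinc-finger repressor, was at 67.9, 25.4 and 27.2 CPM against 123, 79.6 and 60.5 CPM (log2 -1.41 ± 0.23 SE, adjusted p = 0.0172). *Pou3f1*, a POU-domain factor, was at 37.7, 11.9 and 17.0 CPM against 46.2, 53.1 and 41.6 CPM, and *Id2*, an inhibitor of helix-loop-helix factors, was at 45.3, 41.7 and 50.1 CPM against 192, 81.2 and 90.8 CPM. In CPM each of these genes was lower with *Vip* in all 3 mice, but some of these differences rest on few UMIs. *Neurod6* had 56 UMIs in Vip-high and 47 in Vip-0 cells, and *Pou3f1* in mouse 1 had 5 and 6. In mouse 3, 11.2% of Vip-high and 10.0% of Vip-0 cells held a *Neurod6* UMI, at 0.172 and 0.175 UMIs per cell. Of 50 listed enteric transcription factors, 30 were tested, 0 were higher and 2 lower (*Neurod6* and *Trps1*), and 24 of the 30 had a negative value (median log2 -0.30). Of all 7533 tested genes, 29 were lower (0.385%) and 4507 had a negative value (median log2 -0.08). *Etv1*, which marks the branch of enteric neurons that includes the nitrergic ones, was at 1222, 879 and 881 CPM against 1139, 767 and 480 CPM (adjusted p = 0.192), and *Sox6* was at 30.2, 17.2 and 16.1 CPM against 69.3, 39.0 and 45.4 CPM (adjusted p = 0.0517).

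Among genes of the cell surface and of signalling, *Ptprt*, a receptor tyrosine phosphatase, had the lowest fitted value of the called genes, at 22.6, 5.73 and 6.79 CPM against 53.9, 25.0 and 34.0 CPM (log2 -1.98 ± 0.37 SE, adjusted p = 0.0319). These values rest on 25 UMIs in Vip-high and 32 UMIs in Vip-0 cells. Its relative *Ptprd* was at 52.8, 125 and 168 CPM against 154, 222 and 265 CPM. *Tiam1*, an activator of Rac, was at 0, 12.7 and 15.3 CPM against 23.1, 34.4 and 56.7 CPM. *Miat*, a long noncoding RNA (chromosome 5, 112213228 to 112229395), was at 0, 46.7 and 66.2 CPM against 23.1, 123 and 197 CPM (log2 -1.52 ± 0.19 SE, adjusted p = 0.00196). *Ccnd1*, the cyclin D1 gene, was at 90.5, 88.8 and 67.0 CPM against 215, 162 and 178 CPM (log2 -1.09 ± 0.17 SE, adjusted p = 0.0131). *Pcp4* was at 264, 79.0 and 62.8 CPM against 423, 248 and 75.6 CPM. The Vip-0 values of *Ccnd1* and *Ptprt* lay above all Vip-high values, and those of *Pcp4* overlapped them because the mice differed. *Itih5*, *Qk*, *Jmjd1c*, *Syne2*, *Sorbs2*, *Matn2*, *Paxbp1*, *Clk1*, *Reps1*, *Phlpp2* and *AI593442* were also lower in each mouse. *Ndufa4l2* and *Lima1* were higher with *Vip* in mouse 1, at 45.3 against 23.1 CPM and 75.4 against 53.9 CPM, and lower in mice 2 and 3.

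**Figure D4:**
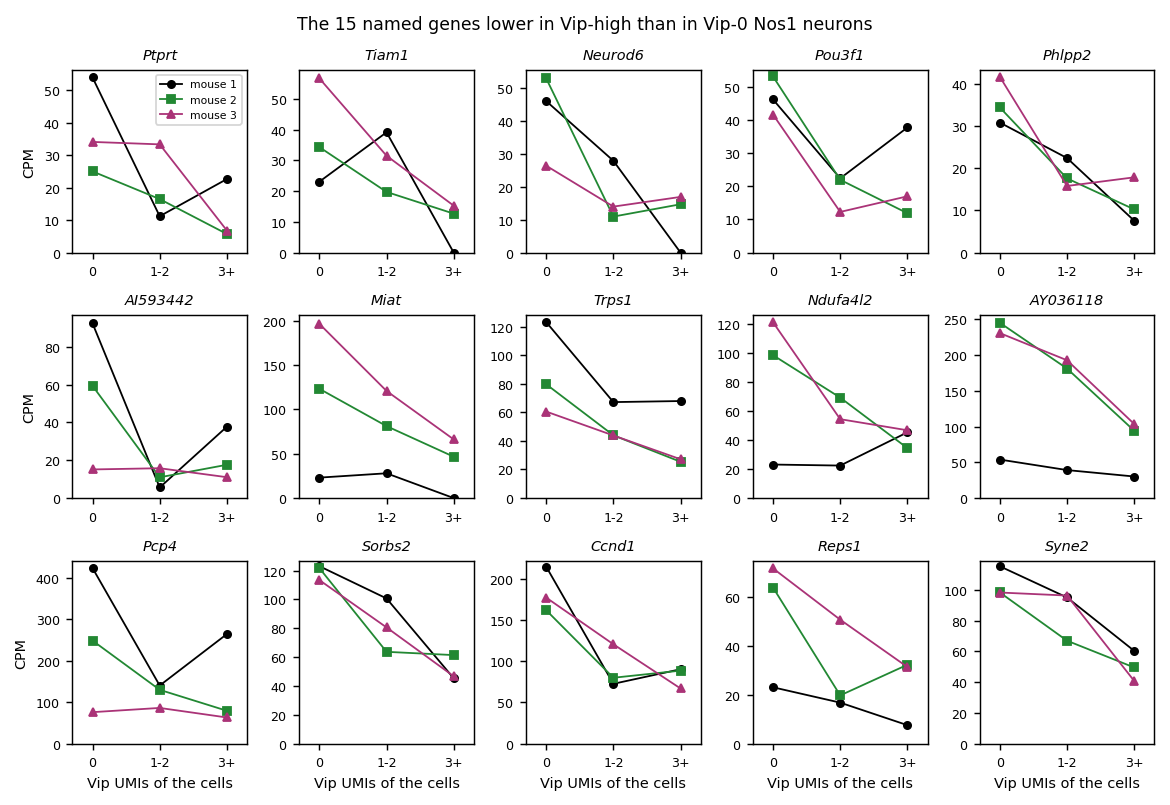
Panels as in the plot of higher genes, with CPM from 0 on the y axis and the *Vip* UMIs of the cells on the x axis. In 14 of the 15 panels every mouse ends lower at 3 or more UMIs than at 0, and the exception is *Ndufa4l2*, where mouse 1 runs from 23.1 to 45.3 CPM.

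Glial transcripts tended to be lower on the Vip-high side. *Sox10*, the transcription factor that marks enteric glia and their progenitors, was at 121, 135 and 121 CPM in Vip-high cells against 262, 217 and 189 CPM in Vip-0 cells (log2 -0.73 ± 0.15 SE, adjusted p = 0.0466). *Gpm6b*, a membrane glycoprotein gene, was lower too, at 181, 205 and 166 CPM against 261, 322 and 272 CPM. Of 16 listed glial markers 14 were tested, 2 were lower with *Sox10* among them, and all 14 had negative values (median log2 -0.24), as had 4507 of all 7533 genes. The summed level of the list was 4880, 7202 and 4868 CPM in Vip-high cells of mice 1, 2 and 3. It was 6156, 7404 and 6025 CPM in their Vip-0 cells, so the sides were close in mouse 2. No defining glial marker was at 0.

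The part of glial RNA in the differences above was not tested beyond leaving out cells. Most cells held some, with at least 2 UMIs over 4 glial and smooth muscle marker genes in 63.9% to 90.0% of Vip-0 and 68.0% to 89.5% of Vip-high cells. Without them, 8, 25 and 13 Vip-high and 13, 9 and 4 Vip-0 cells remained, and 2 genes were higher (*Cartpt* and *Alcam*) and 7 lower. Only 3 of these 7 are among the 29, of which 17 could be tested, and 11 of the 18 higher and 9 of the 17 lower genes had an unadjusted p under 0.05. With only cells of 10 or more such UMIs left out, 9 of the 18 higher genes, with *Cartpt*, *Npy*, *Ass1* and *Bglap* among them, and 10 of the 29 lower ones were called, and the differences of all 18 and of 28 of 29 tested kept their sign. No other cell type list had a called gene. The 9 tested smooth muscle genes had a median log2 of -0.12. Their summed level went in opposite directions, at 4646 CPM in Vip-high against 831 CPM in Vip-0 cells of mouse 1, and at 1766 against 2526 CPM in mouse 2 and 1733 against 2803 CPM in mouse 3. The part of muscle RNA in the values of mouse 1 was not tested beyond leaving out cells. The 4 tested fibroblast genes had a median of -0.52 (193 to 980 CPM against 401 to 1316 CPM). Immune, endothelial, epithelial and interstitial cell markers did not reach the filter, with sums of at most 83.0 CPM in any sum.

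No mitochondrial transcript was called (limma, 6 lower and 0 higher at an unadjusted p under 0.05). All 13 had negative fitted values (median log2 -0.25), but their summed level was 29988, 33539 and 33854 CPM in Vip-high against 27978, 37377 and 50560 CPM in Vip-0 cells, higher with *Vip* in mouse 1 and lower in mice 2 and 3. In mice 1, 2 and 3 the median mitochondrial share of a cell was 2.65%, 2.60% and 2.21% on the Vip-high side and 2.44%, 2.92% and 3.62% on the Vip-0 side. *AY036118* and *Gm42418*, noncoding models that overlap on opposite strands of chromosome 17 in sequence known to match ribosomal RNA, were both lower. *Gm42418* was at 558, 2300 and 2145 CPM against 554, 3857 and 3945 CPM, so that mouse 1 had level values, and *AY036118* was at 30.2, 94.1 and 104 CPM against 53.9, 245 and 231 CPM. *AY036118* also overlaps *CT010467.1* on the same strand, so the counts of these models are uncertain.

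Most gene groups held no called gene. None of 19 tested genes of peptide processing and secretion was called (limma, 5 higher and 0 lower at an unadjusted p under 0.05), although the summed level was 7738 to 7853 CPM in Vip-high and 5902 to 6363 CPM in Vip-0 cells, ranges that did not overlap. *Scg2* (secretogranin II) was at 1124, 1543 and 1607 CPM against 908, 1032 and 1267 CPM (adjusted p = 0.0735), and *Pcsk1n* was at 2082, 3040 and 2610 CPM against 1739, 2394 and 1350 CPM (adjusted p = 0.0682). None of the 22 tested genes of cAMP and CREB signalling, 11 cholinergic genes, 23 potassium channels, 19 other channels, 23 receptors and 19 genes of immature neurons was called. At an unadjusted p under 0.05 these groups held 2, 1, 1, 0, 1 and 2 higher and 1, 3, 4, 2, 6 and 7 lower genes. Of 29 genes of synaptic vesicles and neuronal structure only *Stmn3* was called. *Sox4* and *Dlx1*, expressed in young neurons, were at 324, 252 and 237 CPM against 454, 356 and 431 CPM (adjusted p = 0.0517) and at 15.1, 13.9 and 20.4 CPM against 38.5, 34.4 and 37.8 CPM (adjusted p = 0.0754). For both, the Vip-0 values lay above every Vip-high value.

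Depth was compared directly by taking, for each cell of the smaller side, the cell of the other side of the same mouse nearest in UMIs. This left 25, 81 and 40 cells a side, with medians of 4668, 7657 and 5591 UMIs in Vip-high and 3439, 7668 and 5430.5 in Vip-0 cells, so that depth was alike in mice 2 and 3 but not in mouse 1. No gene was called (limma, 284 higher and 464 lower at an unadjusted p under 0.05 of 7553 tested). All 18 higher and all 29 lower genes kept their sign with an unadjusted p under 0.05, and their median log2 differences were 0.92 and -0.97, beside 1.02 and -1.08 with all cells. The pairs kept every Vip-0 cell of mice 2 and 3 and every Vip-high cell of mouse 1. The genes had been called in these same cells, so kept signs were likely beforehand and are no separate support. *Cartpt* had log2 1.68, *Npy* 1.95, *Ass1* 0.98 and *S100a6* 0.81 in these pairs. In another setting cells were thinned to 3000 UMIs and shallower cells were left out, with the sides kept as set at full depth. This left 23, 236 and 111 Vip-high and 21, 66 and 31 Vip-0 cells, so more of the Vip-0 side was lost. There 30 genes were higher and 37 lower, but these held 14 of the 18 higher genes and 13 of the 28 lower genes that could be tested.

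The same contrast was then drawn in cells the rule had left out, neurons with 0 UMIs of *Nos1* and of *Chat*. There 41 cells were Vip-high (4, 22 and 15 by mouse) and 498 were Vip-0, in the same mice and libraries. Of the 18 higher genes 15 had a positive difference there and 4 were called: *Cartpt*, *Ass1*, *Cygb* and *Cd9*. Of the 29 lower genes 23 had a negative difference and 2 were called, *AY036118* and *Gm42418*. As many, *Neurod6* and *AI593442*, were called in the opposite direction there, with log2 values of 4.79 ± 0.999 SE and 4.65 ± 0.975 SE (adjusted p = 0.0238 and 0.0243). Over all genes tested in both, 68.6% of the genes with a positive difference and 54.5% of those with a negative one had the same sign. The share of all tested genes that were called in cells without *Nos1* is not given, so the numbers called there cannot be set against it. *Ass1* was at 2983, 454 and 638 CPM in Vip-high against 225, 290 and 188 CPM in Vip-0 cells without *Nos1* (log2 1.66 ± 0.34 SE, adjusted p = 0.0185). The highest of these Vip-high cells held 24 of 40 *Ass1* UMIs in mouse 1. In mice 2 and 3 it held 37 of 86 and 71 of 89, so these levels rest much on single cells. *Bglap*, *S100a4*, *Ttr* and *Vstm2l* had log2 values of 0.56, -0.01, -0.41 and -0.21 in cells without *Nos1*, but the interaction, the test of the difference itself, did not call them (adjusted p = 0.464, 0.570, 0.654 and 0.426).

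The interaction was tested for 7645 genes, and 18 were called, all with a smaller or opposite difference in Nos1 neurons (0.235% of those tested). No gene had a larger one (limma, 68 at an unadjusted p under 0.05, against 461 smaller). This balance turned with log2(CPM + 10) without weights, where 163 were larger and 102 smaller at an unadjusted p under 0.05 (limma). *Cartpt* was at 1865, 1816 and 1649 CPM in Vip-high and 102, 113 and 107 CPM in Vip-0 cells without *Nos1* (log2 3.97 ± 0.26 SE). Its Vip-high values lay below the 1908 to 2950 CPM of Nos1 neurons, and its Vip-0 values below their 392 to 1386 CPM (interaction log2 -2.39 ± 0.32 SE, adjusted p = 0.00242). In Vip-high cells without *Nos1*, the highest cell held 22 of 25 *Cartpt* UMIs in mouse 1. In mice 2 and 3 it held 191 of 344 and 133 of 230. *Grp* was higher with *Vip* in cells without *Nos1*, at 895, 1541 and 3362 CPM against 59.1, 76.9 and 74.1 CPM (interaction log2 -3.98 ± 0.45 SE, adjusted p = 0.000505), although 13 of the 41 cells held its 773 UMIs and a single cell 31.8% of them. *Ebf1*, a transcription factor gene, was at 746, 116 and 294 CPM against 28.1, 14.7 and 19.8 CPM in cells without *Nos1*, and at 211, 130 and 187 CPM against 177, 125 and 90.8 CPM in Nos1 neurons (interaction log2 -3.11 ± 0.42 SE). Of the 18 called genes, 4 had UMIs in mouse 1 alone. The call numbers fell to 10 without mouse 1 and to 3 without mouse 3, and were 19 without mouse 2.

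**Figure D5:**
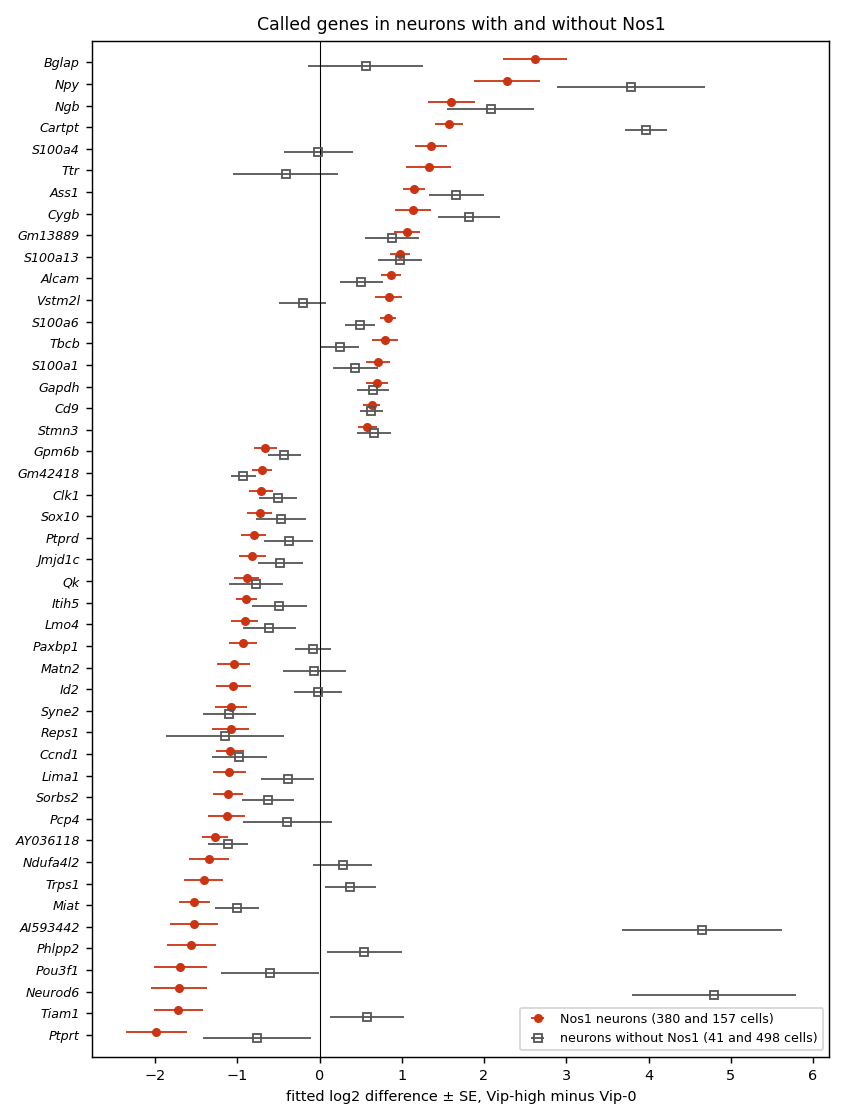
The fitted log2 difference between Vip-high and Vip-0 cells (x axis, with its SE) is shown for 46 of the 47 called genes in Nos1 neurons (filled circles, the cells in which they were called) and in neurons without *Nos1* (open squares). *Neurod6* and *AI593442* lie on opposite sides of 0 in the 2 kinds of neurons, and *Cartpt* lies further right in cells without *Nos1*.

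The largest fitted values of all tested genes were not calls. *Hbb-bs*, *Hbb-bt*, *Hba-a1* and *Hba-a2*, which encode haemoglobin of red blood cells, were looked at after their values were seen. They reached 4104, 947, 950 and 783 CPM in the Vip-high cells of mouse 3 and at most 35.9 CPM in any other sum. A single cell held 7994 of the 7995 UMIs of these genes there, and these were 0.679% of that sum.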

How the data were processed

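RNA of single enteric neurons was measured in 3 *Ednrb*-/- mice, each with a library of its own. The authors counted UMIs with Cell Ranger on mm10 (submitters' processing notes, version not given in the sources used here), kept cells by gene number and mitochondrial share, removed genes they held to be confounding and non-neuronal cells, and deposited natural log values, ln(1 + UMIs per 10000 UMIs of the cell). Genes outside the table held a median of 12.7% of a cell's UMIs. Here 1 UMI was taken as the smallest value above 0 of a cell, and 100% of 6435281 values came out whole within 1e-06.

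UMIs were summed per side and mouse. Genes with a mean of at least 20 CPM and at least 20 UMIs over the 6 sums were tested with limma 3.58.1 in R 4.3.3 on log2((UMI + 0.5)/(total + 1) scaled to 1000000), with voom weights and the mouse as block, since both sides came from the same animal. Tests were two-sided, with Benjamini-Hochberg adjustment over all genes, called under 0.05. Tools for raw counts were not used because the deposited values are logs. Doublets were not called.

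Genes named were the 15 largest called differences in each direction that had the same sign in every mouse with at least 10 UMIs, all peptides tested, up to 4 genes of each other list, and *Etv1*, *Gal*, *Npy*, *Ret* and *Ednrb*; other called genes were added after the values were seen. The cells, lists and tests were chosen with earlier results of these data known. Positions are from GENCODE M21 and promoters from RefSeq GRCm38.p6. Steps were tested on simulated data. 0 columns lay outside the sample list. Some genes are not reported here.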

Additional observations from a re-analysis of the deposited data

Results flagged for a closer look

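Genes are given here because their difference with *Vip* differed between Nos1 neurons and neurons without *Nos1* by the interaction term (limma), among genes named in the report. *Cartpt* had an interaction log2 of -2.39 ± 0.32 SE (adjusted p = 0.00242), with Vip-0 values of 392, 1386 and 579 CPM in Nos1 neurons and 102, 113 and 107 CPM in the other neurons. *Grp* had -3.98 ± 0.45 SE (adjusted p = 0.000505), and in Nos1 neurons its difference was not called. *Neurod6* had -6.36 ± 1.15 SE (adjusted p = 0.0245). It was lower with *Vip* in Nos1 neurons and higher in the others, at 447, 15.8 and 64.5 CPM against 0, 2.10 and 1.23 CPM, values that rest on 18 UMIs in 8 of the 41 cells. *AI593442* had -5.99 ± 1.06 SE (adjusted p = 0.0245), at 0, 10.6 and 86.0 CPM against 0, 1.40 and 1.23 CPM in neurons without *Nos1*, where 4 cells held its 14 UMIs. Fitted values of genes at 0 in a sum depend on the added 0.5 UMI and bound nothing. The sum of mouse 1 was made of 4 Vip-high cells, in which a count of 0 allows up to 224 CPM.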

How the results depend on the processing

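The numbers of genes higher and lower with *Vip* (18 and 29) depended on the processing, while the signs of the called genes mostly did not. Of the 18, 17 kept their sign in every alternative that tested them, and of the 29, 28. The exceptions arose with cells of at least 2 glial or muscle UMIs left out, where *Stmn3* had log2 -0.139 and *Gpm6b* 0.241. The alternatives drew on the same mice and largely on cells of the main comparison, so kept signs are no separate support. No gene was called in either direction without the replicate block (0 and 0; limma, 203 and 684 at an unadjusted p under 0.05), with log2(CPM + 10) (0 and 0; 308 and 423) or log2(CPM + 1) (0 and 0; 290 and 375), both without weights, or in pairs of the cells nearest in depth, which stayed unlike in mouse 1 (0 and 0; 284 and 464). The mean over cells gave 1 higher gene, *Cartpt*, and 0 lower (392 and 491). Leaving out cells with at least 2 glial or muscle UMIs gave 2 and 7, and with at least 10 such UMIs 9 and 12. Higher numbers came from median-of-ratios factors (34 higher), no filter on low values (38), a mean of 100 CPM (30), thinning to 3000 UMIs (30), Vip-0 cells within the range of totals (49 and 79), *Vip* at least 1 (38 and 71), *Nos1* at least 3 (45 and 95), *Nos1* at least 1 (135 and 227), *Chat* not used (28 and 46) and genes with UMIs in every mouse (62 and 145). Leaving out a mouse gave 7 to 177 higher and 6 to 436 lower genes. The interaction, 18 genes, gave 0 without the replicate block (63 and 292 at an unadjusted p under 0.05) or with log2(CPM + 10) (163 and 102), 5806 with no filter, 4 without cells of at least 2 glial or muscle UMIs, 10 with genes in every mouse and 3 to 19 with a mouse left out. Its median over all genes was -0.15, -0.03 with median-of-ratios factors and -0.36 with thinned cells, but 0.23 with log2(CPM + 10). The mostly negative direction of the interaction thus depended on the processing. The causes were not tested. Pairs nearest in depth, the limit of 10 UMIs and genes in every mouse were added after seeing the data.

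Mouse 1 had the smallest sums. On its Vip-0 side 3 counts are 23.1 CPM, so for genes near 20 CPM a difference in that mouse was not detectable at this depth.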
